A study of Mus musculus with 22 samples.

Results

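Antioxidant and glutathione genes were followed in outer hair cell ribosome pulldowns and in whole mouse cochlea. The group holds every protein-coding gene annotated as a peroxiredoxin, glutathione peroxidase, superoxide dismutase, glutathione S-transferase, microsomal glutathione S-transferase, thioredoxin reductase or glutaredoxin, together with catalase, both thioredoxins, the glutathione synthesis and recycling enzymes, Nqo1 and both haem oxygenases. Its 59 members were picked by gene symbol from the 49671 genes listed for each library. Enough reads for testing were present for 51 members, and the other 8 are accounted for at the end.

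The mice carried PrestinCreERT2/+ and RiboTagHA/+, both heterozygous and present in every group. CreERT2 is a recombinase that works after tamoxifen and was driven here by the locus of prestin, the motor protein of outer hair cells; recombination adds an HA epitope tag to a ribosomal protein. The sources give tamoxifen at 3 mg per 40 g body weight below 21 days of age and 9 mg per 40 g from 21 days, so dose and age cannot be told apart. RNA pulled down with an anti-HA antibody (IP, labelled as enriched for outer hair cells) was compared with RNA of whole cochlea without antibody (input) at P8, P14, P28, 6 weeks and 10 weeks, with 2 libraries per group and 3 at 10 weeks, 11 IP and 11 input libraries in all. The series' design text names P21 where the sample labels say P28; the labels were followed. P8 and P14, around the onset of hearing, are called young (4 libraries per fraction), and the 3 later ages adult (7 libraries per fraction).

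Cells detoxify superoxide and peroxides in a relay. Superoxide dismutases turn superoxide into hydrogen peroxide; catalase, peroxiredoxins and glutathione peroxidases remove the peroxide; thioredoxin and glutathione supply the electrons and are themselves reduced with NADPH; glutathione S-transferases join glutathione to reactive compounds. Outer hair cells are known as the cochlear cells most easily lost to noise, aminoglycosides, cisplatin and ageing, and oxidative damage is widely studied as a factor in that loss.

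Reads assigned to genes ranged from 14978013 to 30212757 per IP library and from 19649418 to 39907763 per input library, and levels are given as scaled CPM, which is CPM over gene reads after TMM scaling. On this scale 1 read equals 0.0223 to 0.157 scaled CPM. P8 input library 2, P14 IP library 1 and P28 IP library 2 stood apart, with the fewest genes at a deposited CPM of 1 or more. They held 9853, 10810 and 10870 such genes, against medians of 15203 in IP and 14498 in input. P8 input library 2 also had 72.3% of its reads naming no gene and a scaling factor of 0.324. The scaling factor was 0.615 for P14 IP library 1 and 0.941 for P28 IP library 2. Results are given without these 3 where that matters. The label of the pulldown was checked against 10 outer hair cell markers: 9 were higher in IP, with a median log2 difference of 1.86, and their summed level ran from 461 to 2085 scaled CPM in IP against 176 to 396 in input. Slc26a5, the prestin gene itself, lay at 0.74 ± 0.46 (log2 difference ± SE; adjusted p = 0.199).

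Most antioxidant members were lower on tagged ribosomes than in whole cochlea. With each age weighted equally, 36 of the 51 members tested were lower in IP and 1, the glutaredoxin gene Glrx, was higher (limma on log2(scaled CPM + 1), two-sided, Benjamini-Hochberg adjusted over 18737 genes, called at adjusted p under 0.05). Over all genes tested, 23.2% were called lower and 20.3% higher in the same comparison. The median log2 difference of IP minus input was -1.14 over the members and -0.02 over all genes, and 47 of 51 members had a difference below 0. With CPM as deposited 26 members were called lower: Prdx6, Gpx4, Gstm1, Gstm5, Gstt2, Txn1, Txnrd1, Glrx5, Gclc and Hmox2 lost their call, with log2 differences of -0.88 to -0.25 (adjusted p = 0.0502 to 0.578). Summed over all members, the IP libraries ran from 1137 to 2492 scaled CPM with a median of 1431, and the input libraries from 2631 to 5345 with a median of 4372. In bulk libraries such as these, fewer cells of a type and less RNA per cell cannot be told apart.

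**Figure D1:**
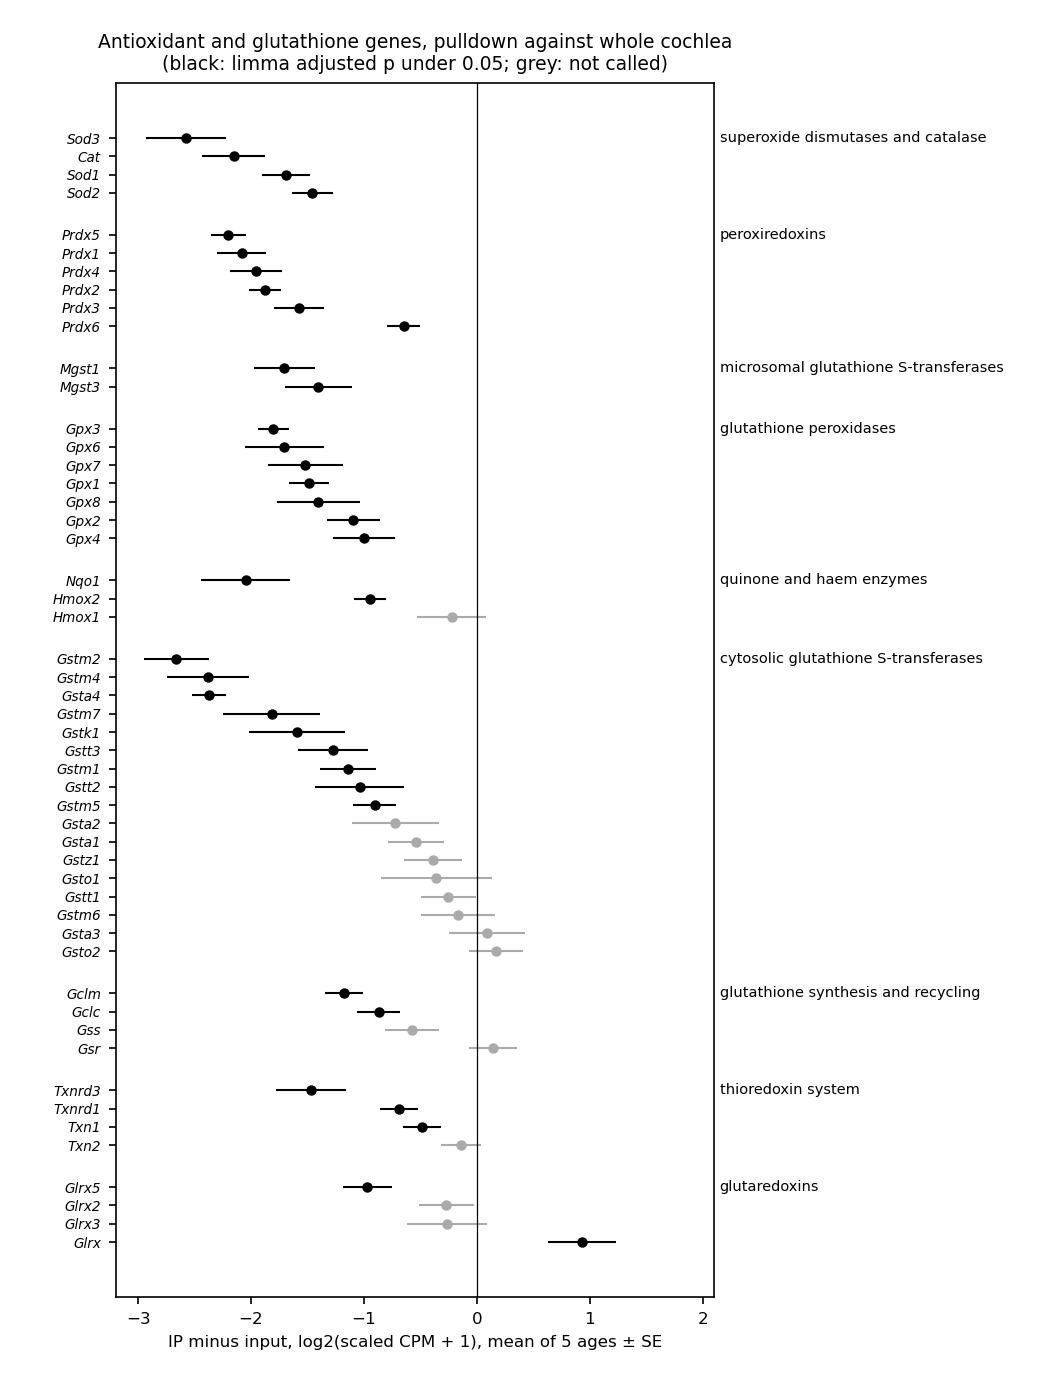
Difference of IP minus input for each of the 51 members tested, on the log2(scaled CPM + 1) scale (horizontal axis), grouped by enzyme family; points are means over 5 ages, bars are standard errors, black points passed the test and grey points did not. All tested peroxiredoxins, glutathione peroxidases, superoxide dismutases, catalase and microsomal transferases lie left of 0, and Glrx is the called member to the right.

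Many of these genes are known targets of NRF2 (Nfe2l2), the factor that binds antioxidant response elements. The 250 bases before the RefSeq start are shown for 1 member with such an element match from each of 3 arms of the relay: a peroxiredoxin, a glutathione synthesis gene and a thioredoxin reductase. Sequences are from the RefSeq promoter table (GRCm38.p6), 5′ to 3′ on the gene's strand, with the element's core TGACNNNGC searched on both strands and its match in capitals, here on the opposite strand in each. Gpx3, which rose with age in both fractions, is shown beside them and held no match, which says only that these letters are not in this window. RefSeq and GENCODE starts differ: the windows of Gpx3 and Txnrd1, and the last bases of that of Prdx1, lie inside the gene spans of GENCODE, and Txnrd1 has several RefSeq starts, of which the one with the match is shown.
Prdx1 (chr4:116685349-116685598): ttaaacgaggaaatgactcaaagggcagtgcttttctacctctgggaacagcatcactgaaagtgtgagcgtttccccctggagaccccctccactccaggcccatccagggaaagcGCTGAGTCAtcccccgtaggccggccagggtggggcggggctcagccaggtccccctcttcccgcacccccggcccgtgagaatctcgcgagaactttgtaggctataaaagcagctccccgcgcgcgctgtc
Gclm (chr3:122245307-122245556): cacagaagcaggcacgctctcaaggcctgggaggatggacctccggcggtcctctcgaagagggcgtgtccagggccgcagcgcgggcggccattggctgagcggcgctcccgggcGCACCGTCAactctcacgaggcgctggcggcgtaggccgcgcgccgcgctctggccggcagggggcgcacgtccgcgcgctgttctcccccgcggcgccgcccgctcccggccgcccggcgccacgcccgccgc
Txnrd1 (chr10:82858956-82859205): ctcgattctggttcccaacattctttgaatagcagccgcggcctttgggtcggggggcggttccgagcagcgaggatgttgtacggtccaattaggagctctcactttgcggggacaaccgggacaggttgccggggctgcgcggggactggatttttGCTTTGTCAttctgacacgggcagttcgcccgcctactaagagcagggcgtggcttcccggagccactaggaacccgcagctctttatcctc
Gpx3 (chr11:54902604-54902853): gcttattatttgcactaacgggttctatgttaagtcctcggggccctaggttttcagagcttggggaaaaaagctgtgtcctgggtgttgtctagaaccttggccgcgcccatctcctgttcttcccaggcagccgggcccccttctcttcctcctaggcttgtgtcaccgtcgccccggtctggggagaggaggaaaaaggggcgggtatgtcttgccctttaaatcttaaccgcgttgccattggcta
The match begins 133, 134 and 92 bases before the start in Prdx1, Gclm and Txnrd1. In windows from 250 bases before to 50 after the start, the core occurred in 8 of the 52 members in the table (15.4%) and in 14.0% of 27025 genes, so the members' share was near that of all genes. The 8 were Gclm, Gsta3, Gstm5, Gstm7, Mgst1, Prdx1, Sod1 and Txnrd1; 7 members were not matched in the table. Of the 8, 7 were lower in IP, beside 36 of all 51 members tested.

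All 6 peroxiredoxins, which reduce peroxides with electrons from thioredoxin, were lower in IP, with a median log2 difference of -1.92. Prdx5, a peroxiredoxin of mitochondria, peroxisomes and cytosol (GRCm38 chr19:6906697-6910106, minus strand), ran from 40.0 to 189 scaled CPM with a median of 56.6 in the 11 IP libraries, and from 228 to 420 with a median of 286 in the 11 input libraries. No IP library reached the lowest input library, and the log2 difference was -2.20 ± 0.16 (SE; adjusted p = 2.96e-10). Cytosolic Prdx1 likewise showed no overlap, at 14.6 to 61.0 scaled CPM (median 24.0) in IP against 72.7 to 212 (median 127) in input, a log2 difference of -2.08 ± 0.21 (adjusted p = 5.82e-08). Cytosolic Prdx2 ran from 39.1 to 119.6 (median 61.0) scaled CPM in IP and from 209 to 337 (median 238) in input. Mitochondrial Prdx3 ran from 10.4 to 53.5 (median 28.3) in IP and from 58.2 to 147 (median 83.4) in input. Both were thus separated in all libraries too, with log2 differences of -1.88 ± 0.14 and -1.58 ± 0.22. Prdx4 of the endoplasmic reticulum had a log2 difference of -1.95 ± 0.23. Prdx6, which also has phospholipase activity, was the least depleted of the 6, with 70.6 to 230 scaled CPM in IP (median 125) and 155 to 371 in input (median 214), overlapping ranges and a log2 difference of -0.65 ± 0.14 (adjusted p = 0.000813; with CPM as deposited -0.40, adjusted p = 0.305). Part of the exons of Prdx5 and Prdx2 lies in genes on the opposite strand (19.1% and 11.5% of exon bases), and 23.8% of the 50-base stretches of Prdx2 also occur in other genes, so some of their reads are uncertain.

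The 7 glutathione peroxidases tested, which spend glutathione to reduce peroxides, were all lower in IP, with log2 differences from -1.80 to -0.999. Gpx1, the main cytosolic form, ran from 22.3 to 121.1 scaled CPM in IP (median 46.2), compared with 86.6 to 313 in input (median 123). The ranges overlap over all ages, but at each age both or all IP libraries lay below the input libraries of that age, and the log2 difference was -1.49 ± 0.18 (adjusted p = 4.45e-07). Gpx3, the secreted plasma form (chr11:54902453-54910377, plus strand), had 15.3 to 215 scaled CPM in IP (median 143) and 85.1 to 781 in input (median 591), with a log2 difference of -1.80 ± 0.14 (adjusted p = 7.27e-10). Its wide ranges follow age and are taken up further on. Gpx4, which reduces lipid peroxides in membranes, had 3.30 to 36.0 scaled CPM in IP (median 13.9) and 10.98 to 53.7 in input (median 20.04), overlapping ranges and a log2 difference of -0.999 ± 0.28 (adjusted p = 0.00568), which was not called with CPM as deposited (-0.75, adjusted p = 0.127). At 10 weeks the order of Gpx4 was reversed, with all IP libraries (19.03 to 36.0 scaled CPM) above all input libraries (12.9 to 18.97). Of the 50-base stretches of Gpx4, 61.7% also occur in other genes, mainly a pseudogene copy, so its level is uncertain. Gpx6, Gpx7, Gpx8 and Gpx2 had log2 differences of -1.70, -1.52, -1.40 and -1.09. Gpx6 is a low gene, with a median of 0.112 scaled CPM in IP and 3.47 in input, and its difference was -4.67 by edgeR.

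Superoxide dismutases and catalase were lower in IP in 4 of 4 cases. Sod1, the cytosolic copper-zinc enzyme, ran from 12.9 to 74.8 scaled CPM in IP, with 23.4 as median, and from 56.3 to 177 in input, with 81.8, a log2 difference of -1.69 ± 0.22 (adjusted p = 1.23e-06). Sod2, the manganese enzyme of mitochondria, ran from 28.7 to 150.3 in IP (median 56.2), compared with 101.3 to 208 in input (median 176), a log2 difference of -1.46 ± 0.18 (adjusted p = 6.66e-07). Over all libraries the ranges of both genes overlapped, with P28 IP library 2 the highest IP library for each, and neither overlapped within any age. Secreted Sod3 was one of the most depleted members, at 0.506 to 11.9 scaled CPM in IP (median 3.29) and 17.6 to 47.1 in input (median 24.4), with no overlap and a log2 difference of -2.57 ± 0.35 (adjusted p = 3.55e-06). Catalase, the peroxisomal hydrogen peroxide enzyme (Cat, chr2:103453849-103485160, minus strand), ran from 0.172 to 42.9 in IP, with 18.4 as median, and from 52.8 to 113 in input, with 68.2, again with no overlap and a log2 difference of -2.15 ± 0.28 (adjusted p = 1.55e-06).

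**Figure D2:**
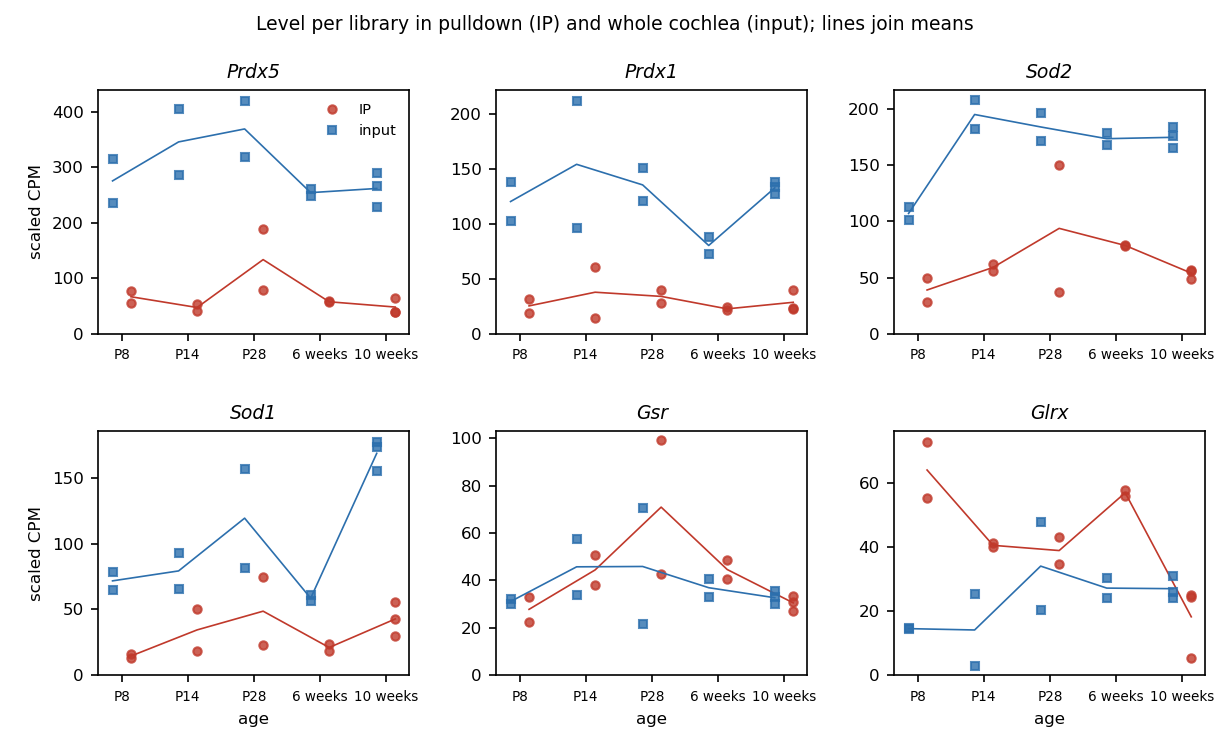
Level in every library (scaled CPM, vertical axes starting at 0) at each age for 6 members; red circles are IP libraries, blue squares input libraries, and lines join group means. Prdx5, Prdx1, Sod2 and Sod1 show no overlap of IP and input at any age, Gsr overlaps at all ages, and the IP libraries of Glrx lie above input at 3 ages.

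Among the glutathione S-transferases that are not microsomal, 9 of 17 tested were lower in IP, none was higher and the median log2 difference was -0.91. The figures label this group cytosolic, but it includes Gstk1, which is counted further on with the mitochondrial members. Gsta4, which conjugates the lipid peroxidation product 4-hydroxynonenal (chr9:78182774-78209349, plus strand), ran from 44.4 to 264 scaled CPM in IP (median 115), compared with 275 to 941 in input (median 639). No IP library reached the lowest input library, and its log2 difference of -2.37 ± 0.15 had the smallest adjusted p of all members (5.32e-11). Gstm2 ran from 0.129 to 8.40 scaled CPM in IP, with 3.38 as median, and from 16.3 to 52.7 in input, with 23.4, with no overlap and a log2 difference of -2.66 ± 0.29, the most negative of the 51. Gstm4 ran from 0 to 7.39 scaled CPM in IP (median 0.651), compared with 6.88 to 18.4 in input (median 10.6), a log2 difference of -2.38 ± 0.36. Gstm7, Gstk1, Gstt3, Gstm1, Gstt2 and Gstm5 were also lower, with log2 differences from -1.82 to -0.91. The call of Gstt2 (-1.04) was lost in 17 of 30 alternative analyses, among them the fit without P8 IP library 2 (-0.64, adjusted p = 0.103), and Gstk1 moved from -1.59 to -1.06 without the 3 libraries that stood apart. The 8 transferases not called, Gsta1, Gsta2, Gsta3, Gstm6, Gsto1, Gsto2, Gstt1 and Gstz1, had differences between -0.72 and 0.17. Gsta1 and Gsta2 share 89.7% and 64.2% of their 50-base stretches with other genes, so their split is uncertain. Both microsomal transferases tested, membrane enzymes of the same chemistry, were lower in IP, Mgst1 with a log2 difference of -1.70 ± 0.27 and Mgst3 with -1.40 ± 0.30.

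The thioredoxin system and the glutaredoxins, the electron carriers of the relay, were less uniform. Txn1, cytosolic thioredoxin, ran from 37.1 to 117 scaled CPM in IP, with 65.7 as median, and from 76.9 to 153 in input, with 94.7, overlapping ranges and a log2 difference of -0.48 ± 0.17 (adjusted p = 0.0252). That call was lost with CPM as deposited (-0.25, adjusted p = 0.578) and with 5 of the 22 libraries left out singly (adjusted p = 0.0559 to 0.0649). Mitochondrial Txn2 did not pass, at 30.1 to 144 (median 113) in IP and 78.0 to 215 (median 101.5) in input, a log2 difference of -0.14 ± 0.18 (adjusted p = 0.56). The reductases Txnrd1 (-0.69 ± 0.17) and Txnrd3 (-1.47 ± 0.31) were lower. With CPM as deposited Txnrd1 was not called (-0.45, adjusted p = 0.278), and with quantile normalization Txnrd3 was called at -0.96. Glrx, the cytosolic glutaredoxin that removes glutathione from protein thiols (chr13:75839868-75850154, plus strand), was the only member called higher in IP. Its IP libraries ran from 5.18 to 72.9 scaled CPM (median 41.3) and its input libraries from 2.81 to 48.0 (median 24.1). The log2 difference was 0.93 ± 0.30 (adjusted p = 0.0162), with IP above input in all libraries at 3 of the 5 ages. Glrx5, a mitochondrial iron-sulfur cluster protein, was lower (-0.97 ± 0.22, adjusted p = 0.000882), a call lost with CPM as deposited (-0.73, adjusted p = 0.0709). Glrx2 and Glrx3 lay at -0.27 ± 0.24 and -0.27 ± 0.35 and did not pass (adjusted p = 0.382 and 0.566).

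Glutathione is built by the ligase of Gclc and Gclm and by Gss, and oxidised glutathione is recycled by Gsr. Gclm, the regulatory subunit, ran from 13.5 to 34.8 scaled CPM in IP (median 22.1), compared with 34.7 to 63.7 in input (median 55.3), a log2 difference of -1.17 ± 0.17 (adjusted p = 6.13e-06). Gclc, the catalytic subunit, ran from 11.4 to 48.9 in IP, with 23.6 as median, and from 32.0 to 71.1 in input, with 47.2, a difference of -0.87 ± 0.19 (adjusted p = 0.000755). With CPM as deposited the Gclc difference was -0.62 and not called (adjusted p = 0.159). Gss, at -0.57 ± 0.24, missed the threshold (adjusted p = 0.0593). Gsr, glutathione reductase, was not called: it held 22.5 to 99.1 scaled CPM in IP (median 38.2) and 21.3 to 70.4 in input (median 33.1), a log2 difference of 0.14 ± 0.21 (adjusted p = 0.611). Gsr levels thus overlapped in all ages, while both ligase subunits were called lower in IP. Within ages Gclm was separated throughout, but Gclc only at P14 and P28. At 10 weeks Gclc held 45.4 to 48.9 scaled CPM in IP and 47.2 to 52.4 in input.

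Of the quinone and haem enzymes, Nqo1, which reduces quinones with NAD(P)H, ran from 0 to 5.23 scaled CPM in IP (median 2.78), compared with 5.22 to 20.3 in input (median 12.5). It was separated within each age, with a log2 difference of -2.05 ± 0.39 (adjusted p = 0.000182). Hmox2, the constitutive haem oxygenase, was lower (log2 difference -0.95 ± 0.14), although 40.2% of its exon bases lie in Cdip1 on the opposite strand and the call was lost with CPM as deposited (-0.70, adjusted p = 0.0705). Hmox1, the stress-inducible haem oxygenase, ran from 3.17 to 111 scaled CPM in IP, with 15.3 as median, and from 10.7 to 25.8 in input, with 18.6, with a log2 difference of -0.22 ± 0.30 (adjusted p = 0.579). The IP maximum of 111 came from P14 IP library 1, and the next highest IP library held 25.4.

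Within ages, the members' IP libraries were often below every input library of the same age. This held for 34 of 51 members at P8, 28 at P14, 31 at P28, 39 at 6 weeks and 40 at 10 weeks, or 66.7%, 54.9%, 60.8%, 76.5% and 78.4% of the members, against 27.3%, 23.7%, 24.3%, 35.4% and 27.7% of all genes tested. It held at all 5 ages for 18 of 51 members, 35.3%, against 7.17% of all genes. The reverse, every IP library above every input library at all 5 ages, held for 0 members and for 4.80% of all genes. At the single ages in the same order, the reverse held for 2, 2, 0, 2 and 1 members, against 24.5%, 24%, 18.2%, 30.6% and 25.6% of all genes. The 18 were Prdx1, Prdx2, Prdx3, Prdx5, Gpx1, Gpx3, Sod1, Sod2, Sod3, Cat, Gsta4, Gstm2, Gstm4, Gstm5, Gclm, Txnrd3, Nqo1 and Hmox2. This count rests on the scaling of P8 input library 2: with CPM as deposited it was 0 of 51 members (0.256% of all genes), and with CPM as deposited but that library left out it was 14 of 51 (7.74% of all genes). For single ages, CPM as deposited gave 2 of 51 members below input at P8 (3.00% of all genes), 36 at P14 (31.2%), 34 at P28 (26.3%), 24 at 6 weeks (17.6%) and 40 at 10 weeks (29.6%). With CPM as deposited, members wholly above input numbered 3 at P8, 1 at P14, 0 at P28, 6 at 6 weeks and 1 at 10 weeks. The share of all genes above input was not counted on that scale for single ages.

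**Figure D3:**
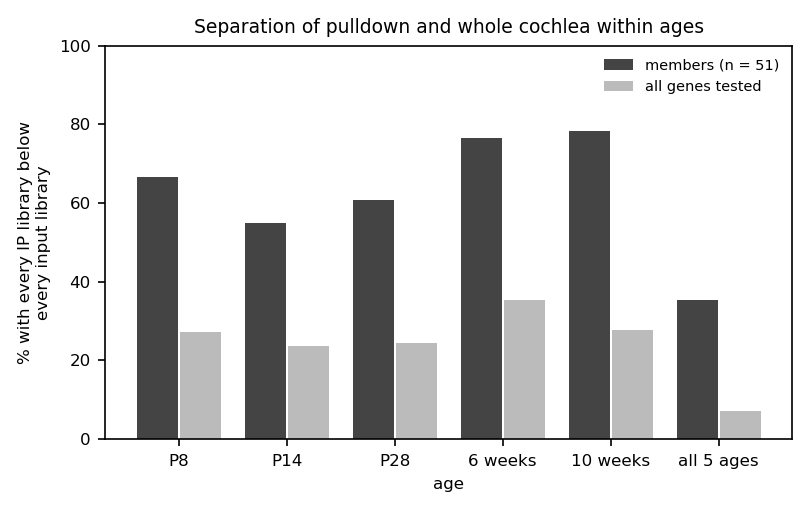
Share of the 51 members (dark bars) and of all genes tested (light bars) for which every IP library lay below every input library, at each age and at all 5 ages together (vertical axis in percent, from 0). On this scale the members' share is above that of all genes at each age, from 54.9% against 23.7% at P14 to 78.4% against 27.7% at 10 weeks.

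Length-scaled levels put the same few genes on top in both fractions. In input, mean scaled CPM per kb of exon was 541 for Gsta4, 262 for Gpx3, 139 for Prdx5, 99.3 for Gpx1, 93.1 for Txn1 and 83.2 for Prdx2. In IP it was 102 for Gsta4, 73.0 for Gpx3, 67.7 for Txn1, 36.0 for Gpx1, 32.1 for Prdx5, and 30.4 and 30.2 for Gstm5 and Prdx6. Txn1 thus stood higher in the order of IP than in that of input. Its neighbours in IP were not separated by the spread: Gpx3 varied from 15.3 to 215 and Txn1 from 37.1 to 117 scaled CPM between libraries.

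**Figure D4:**
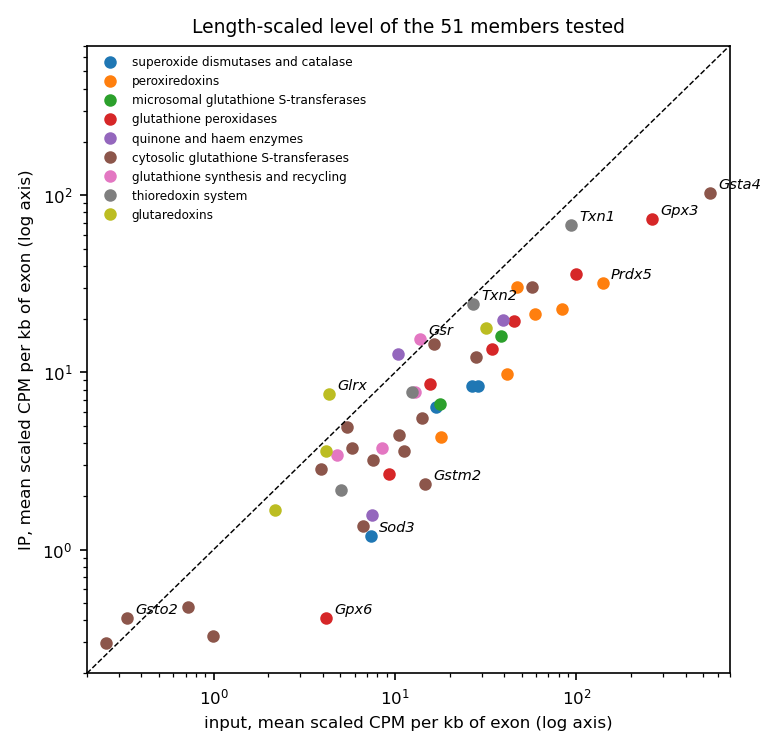
Mean level per kb of exon of each tested member in input (horizontal) and IP (vertical), both on log axes in scaled CPM per kb, coloured by family; the dashed line marks equal levels. Gsta4, at 541 and 102, is the highest in both fractions, and most points lie under the line, with 5 above it (Glrx, Gsr, Hmox1, Gsta3 and Gsto2). The IP mean of Hmox1 includes 111 scaled CPM in P14 IP library 1, against 25.4 in the next highest IP library. Gsta3 and Gsto2 are low, with at most 4.34 and 3.09 scaled CPM in IP.

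Markers of other cochlear cells moved in the same direction as the members. Lower in IP were 8 of 8 stria vascularis markers, 7 of 7 macrophage markers, 7 of 8 neutrophil markers, 6 of 8 erythroid markers, 6 of 9 supporting cell markers, 5 of 7 fibrocyte and mesenchyme markers, 5 of 7 spiral ganglion neuron markers, 5 of 6 Schwann cell markers and 4 of 7 bone and cartilage markers. None of these markers was higher except 1 of the supporting cells. Inner hair cell markers split, with 1 of 6 higher and 1 lower. The summed level in IP against input ran from 1765 to 5977 against 4972 to 14241 scaled CPM for stria, 3207 to 14036 against 9813 to 30955 for fibrocytes and mesenchyme, 1046 to 2891 against 1987 to 5573 for supporting cells, 407 to 2106 against 379 to 4108 for spiral ganglion neurons and 1568 to 13701 against 3087 to 23160 for Schwann cells. For erythroid cells it ran from 75.2 to 1015 against 362 to 2289, for neutrophils from 4.37 to 150 against 11.6 to 342, for macrophages from 49.9 to 163 against 143 to 254 and for bone and cartilage from 561 to 21336 against 3217 to 20105. No marker of these lists was at 0 in all IP libraries. The part of these cells in the members' lower IP level was not tested.

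Several features not used to choose the members were described beside this difference. Of the 7 mitochondrial members tested, 5 were lower in IP (median log2 difference -1.46). Of the 6 selenoproteins, which carry selenocysteine, 6 were lower (median -1.28). Of the 5 secreted or endoplasmic reticulum members, 5 were lower (median -1.80). Over all members tested 70.6% were called lower, and over all genes 23.2%, so the mitochondrial share was near that of all members. Gpx3 was counted both as a selenoprotein and as a secreted member. The members are short genes, with a median exon length of 2139 bases against 3774 over all genes. Across genes, which are not independent replicates and share the same 22 libraries, Spearman's rho of exon length and IP minus input was 0.28 over 51 members and 0.29 over 18686 genes, so shorter genes lay lower in IP in both sets. The part of length in the result was not tested.

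Between young and adult ages, few members changed in the pulldown. Called in IP were 2 members that rose, Gpx3 and Gstm1, and 1 that fell, Cat, of 51; over all genes 4.52% rose and 6.24% fell. Gpx3 stood at 15.3 and 20.2 scaled CPM in the P8 IP libraries, at 164 and 71.5 at P14, and from 129 to 215 (median 159) in the 7 adult IP libraries. Only P14 IP library 1 of the young libraries reached the adult range, and the log2 difference of adult minus young was 1.93 ± 0.20 (adjusted p = 1.87e-06), called in each alternative analysis run.

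Gstm1, a mu-class transferase, stood at 12.0 and 4.55 scaled CPM at P8, 3.19 and 13.9 at P14 and 12.1 to 41.4 (median 22.7) in adult IP, a log2 difference of 1.51 ± 0.36 (adjusted p = 0.0102). Young and adult overlapped through P14 IP library 2 and the lowest adult library. The Gstm1 call was lost without P14 IP library 1 (1.05, adjusted p = 0.0817), without P8 IP library 2 (1.20, adjusted p = 0.0839) and without the 3 libraries that stood apart (0.92, adjusted p = 0.0839). It was also lost with CPM as deposited (1.57, adjusted p = 0.0781) and when only the IP libraries were fitted (1.65, adjusted p = 0.120). Gstm1 also shares 23.1% of its 50-base stretches with other genes.

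Cat fell in IP, from 38.9, 42.9, 39.6 and 18.4 scaled CPM in the 4 young libraries to 0.172 to 30.1 (median 15.0) in the 7 adult libraries. The young libraries lay above all adult ones except P14 IP library 2, and the log2 difference was -1.70 ± 0.41 (adjusted p = 0.0098). The lowest value, 0.172, came from P28 IP library 2, and without that library the difference was -1.18 and still called (adjusted p = 0.00707). The call was lost without P14 IP library 1 (-1.44, adjusted p = 0.0832) or P8 IP library 2 (-1.67, adjusted p = 0.0506), with CPM as deposited (-1.31, adjusted p = 0.15), and when only the IP libraries were fitted (-1.57, adjusted p = 0.159). Without the 3 libraries that stood apart Cat was called at -0.91 (adjusted p = 0.0418), and with quantile normalization at -1.13. In input, Cat lay at -0.36 ± 0.41 (adjusted p = 0.75).

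The other 48 members did not pass in IP, among them Gpx8 at -1.48 ± 0.54 and Gsta4 at 0.59 ± 0.22 (adjusted p = 0.0796 for both). Unadjusted p was under 0.05 for 7 of 51. The count of 3 is sensitive to single libraries: without P14 IP library 1 it was 1, without P14 IP library 2 it was 6 and without P28 IP library 1 it was 8, the last with Gpx8 and Gstz1 added among those that fell and Sod1, Sod2 and Gsta4 among those that rose. Of the outer hair cell markers, 2 of 10 fell with age in IP and 0 rose. Of the bone and cartilage markers 5 of 7 fell and 1 rose, of the fibrocyte and mesenchyme markers 4 of 7 fell and 1 rose, and of the supporting cell markers 4 of 9 fell and 2 rose. Of the spiral ganglion neuron markers 5 of 7 rose and 1 fell, of the Schwann cell markers 2 of 6 rose and 1 fell, and of the neutrophil markers 2 of 8 rose and 0 fell. Macrophage and inner hair cell markers had 1 that fell each, and stria and erythroid markers had 0 called. The median summed level of bone and cartilage markers in IP was 12878 scaled CPM in young and 906 in adult libraries. The part of these cells in the age differences was not tested.

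**Figure D5:**
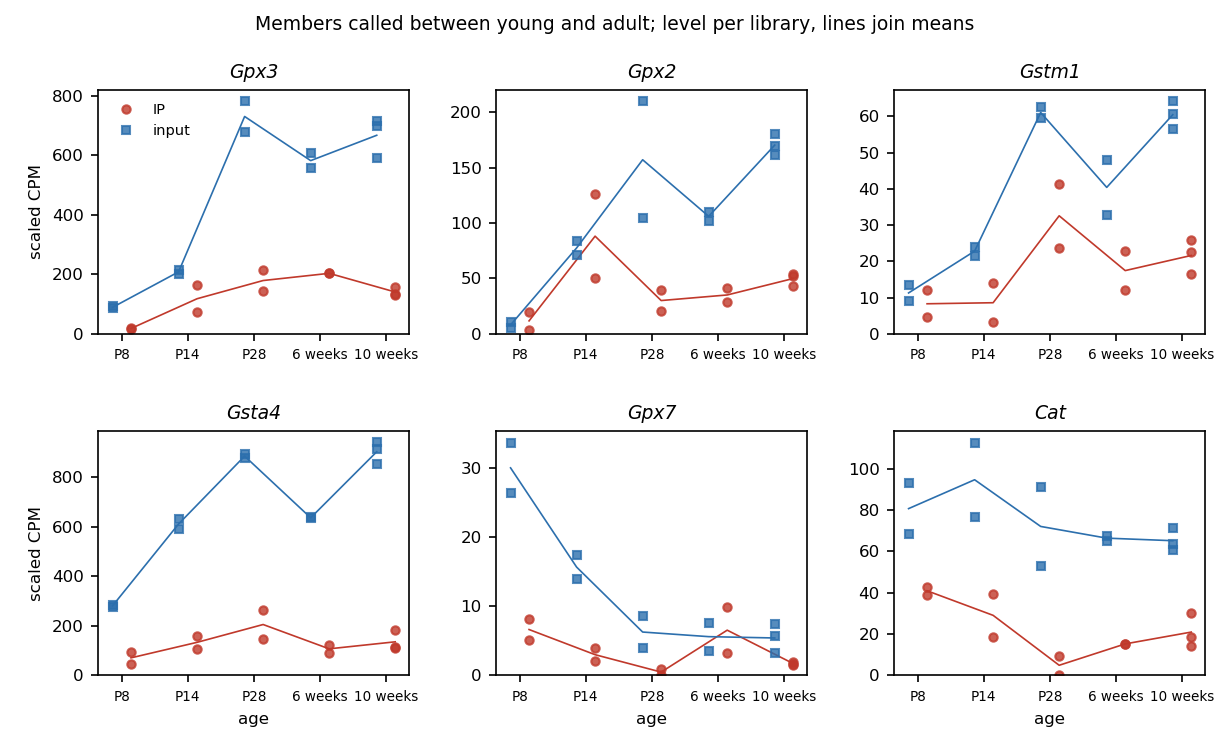
Level in every library (scaled CPM, vertical axes starting at 0) at each age for the 6 members called between young and adult in IP or input; red circles are IP, blue squares input, and lines join group means. Gpx3 rises in both fractions, Gpx2 and Gsta4 were called in input, and Cat fell in IP, where P28 library 2 stood at 0.172.

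In whole cochlea, 4 members rose with age and 1 fell, against 3.47% and 2.39% of all genes. Gpx3 stood at 85.1 and 92.4 scaled CPM at P8, 202 and 214 at P14 and 557 to 781 (median 680) in adult input, with no overlap and a log2 difference of 2.26 ± 0.20 (adjusted p = 9.83e-08). Gpx2, the glutathione peroxidase best known from gut epithelium (chr12:76792333-76795554, minus strand), stood at 10.3 and 5.65 at P8, 70.9 and 84.2 at P14 and 102 to 210 (median 161) in adult input. Its young and adult libraries did not overlap either, and the log2 difference was 2.43 ± 0.35 (adjusted p = 7.38e-05).

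Gstm1 rose in input as well, from 9.02 and 13.5 at P8 and 21.5 and 24.1 at P14 to 32.8 to 64.2 (median 59.6) scaled CPM in adult libraries (1.67 ± 0.36, adjusted p = 0.00605). Gsta4 rose from 275 and 285 at P8 and 631.5 and 590.4 at P14 to 633 to 941 (median 876), with a log2 difference of 0.95 ± 0.22 (adjusted p = 0.00842; with CPM as deposited 1.56, adjusted p = 0.027). The P14 libraries of Gsta4 were close to the lowest adult library. Gpx7 of the endoplasmic reticulum fell, from 26.3 and 33.6 at P8 and 13.9 and 17.3 at P14 to 3.14 to 8.56 (median 5.58), with no overlap and a log2 difference of -1.82 ± 0.49 (adjusted p = 0.0265). That call did not hold in all analyses: edgeR's quasi-likelihood test gave an adjusted p of 0.154, and it was lost with CPM as deposited (-1.17, adjusted p = 0.293), with a pseudocount of 0.25 (-1.96, adjusted p = 0.0811) and with 7 libraries left out singly. Input markers moved with age too: 5 of 7 spiral ganglion neuron markers rose and 1 fell (median log2 difference over the list 2.09), and 5 of 7 bone and cartilage markers fell and 1 rose (median summed level 15394 young, 3592 adult), and their part in the members' changes was not tested.

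No member passed the test of a change in enrichment, the IP minus input difference at adult ages minus that at young ages. Limma called 0 of 51, against 0.0374% of all genes higher and 0.133% lower; 4 members had an unadjusted p under 0.05, namely Gpx2, Glrx, Cat and Prdx4, and edgeR and DESeq2 each called 1, Gpx2. Gpx2 lay at -2.01 ± 0.49 (adjusted p = 0.0898 by limma, 0.0463 by edgeR and 0.0029 by DESeq2). Without the 3 libraries that stood apart it was -1.33 (adjusted p = 0.314), and it was called by limma without P8 IP library 1, P14 IP library 2 or P28 IP library 1 (-2.54, -2.34 and -2.17). Cat, at -1.34 (adjusted p = 0.364), was called without P28 IP library 1 (-1.86, adjusted p = 0.00828) and lay at -0.82 without P28 IP library 2. The IP libraries of Gpx2 stood at 3.69 and 19.6 scaled CPM at P8, 126 and 50.1 at P14 and 20.2 to 54.2 (median 41.1) in adults. IP and input of Gpx2 thus overlapped at P8 and P14 and were apart at the 3 adult ages. Glrx lay at -1.87 ± 0.63 (adjusted p = 0.241), and at -1.17 without P14 input library 1. Its P8 levels were 55.6 and 72.9 scaled CPM in IP against 14.3 and 14.7 in input, and its 10-week levels 5.18, 24.5 and 25.0 in IP against 31.0, 26.1 and 24.1 in input. Both IP libraries of Glrx thus lay above both input libraries at P8, and IP and input overlapped at 10 weeks, while the test of that change did not pass.

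Of 15 tested genes of the NRF2 axis, the factors that act on these elements and their partners, 4 were higher (26.7%) and 3 lower (20%) in IP, shares near those of all genes (20.3% and 23.2%). Nfe2l2 itself stood at 60.2 ± 23.0 scaled CPM in IP and 50.98 ± 5.6 in input (SD, n = 11 each; log2 difference 0.21 ± 0.15, adjusted p = 0.25), and its inhibitor Keap1 was lower (-0.55 ± 0.15, adjusted p = 0.00564). Bach1 and Bach2, which compete with NRF2 for these elements, were higher in IP: Bach1 stood at 185 ± 74 against 33.7 ± 11.4 scaled CPM (2.39 ± 0.23, adjusted p = 1.86e-08) and Bach2 at 81.6 ± 54.0 against 7.91 ± 9.60 (3.36 ± 0.35, adjusted p = 5.90e-08). Slc7a11, the cystine importer that feeds glutathione synthesis, was higher (1.57 ± 0.26), as was Mafg, a partner protein of NRF2 and BACH factors (0.91 ± 0.16). Sqstm1, an autophagy receptor that binds KEAP1, was lower (-1.56 ± 0.13, adjusted p = 2.11e-09).

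Other genes of the pathway are given beside the 23.2% of all genes called lower and 20.3% called higher. Among NADPH suppliers, 8 of 12 were lower (66.7%), with Taldo1 at -2.08 and Tkt at -1.66 (pentose phosphate enzymes) and Nnt at -1.44, and 1 was higher, cytosolic isocitrate dehydrogenase Idh1 (0.99 ± 0.17; 115 ± 67 scaled CPM in IP and 55.0 ± 20.8 in input, SD, n = 11 each). Of the glutathione turnover genes, 6 of 15 were lower (40.0%), among them Hagh, Esd and Lap3 (-1.30, -1.96 and -1.94), and 2 were higher, among them the peptidase gene Anpep (1.25). Of genes for selenoproteins and their synthesis, 9 of 19 were lower (47.4%) and 2 higher; Selenof (-2.32 ± 0.12, adjusted p = 7.10e-12), Selenop (-2.12), Selenot (-1.32) and Selenow (-1.73) had the smallest adjusted p. Thioredoxin partners and protein repair genes were lower in 10 of 21 (47.6%) and higher in 6 (28.6%), with the protein disulfide isomerases Pdia3 and P4hb at -1.25 and -1.34, Park7 at -1.81 and Tmx2 at -1.56. Txnip, which binds and inhibits thioredoxin, was higher (0.76 ± 0.11; 430 ± 262 against 241 ± 71 scaled CPM).

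Oxidant sources were lower in 4 of 13 (30.8%, near the share of all genes), namely the phagocyte oxidase genes Cyba and Cybb (-2.37 and -1.73) and the monoamine oxidases Maoa and Maob (-1.15 and -1.69), and 1 was higher, Nox4 (1.24). Of 12 metal and iron genes, 8 were lower (66.7%), with the ferritin heavy chain Fth1 at -1.89, the copper chaperone Atox1 at -2.31 and the metallothionein Mt3 at -1.53, and 2 were higher, among them the iron exporter Slc40a1 (2.42). With age, Fth1, Mt1, Mt2 and Mt3 rose in input (1.25, 1.19, 2.04 and 0.82; 33.3%) and 0 fell. In IP, Mt1 and Mt2 rose (1.16 and 1.93; 16.7%) and 1 fell (8.33%). Over all genes, 3.47% rose and 2.39% fell in input, and 4.52% and 6.24% in IP. Of the thioredoxin partners and protein repair genes, 5 of 21 fell in IP (23.8%) and 2 in input (9.52%), and 0 rose in either. Of the NADPH suppliers, 2 of 12 fell in IP (16.7%) and 1 rose. The other lists had at most 2 genes called each way in either fraction. Fth1 was the gene of these lists with a called change of enrichment (-1.53 ± 0.28, adjusted p = 0.0263): its mean was 580.5 scaled CPM in young and 442 in adult IP, and 1127 in young and 2525 in adult input.

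The 8 members not tested had too few reads to enter the test. Gstp1, Gstp2, Gstp3, Gstm3 and the mitochondrial thioredoxin reductase Txnrd2 were listed at 0 in all 22 libraries. Txnrd2 is used by nearly every cell, so a listing at 0 is not taken as absence. Gstp1, Gstp2 and Gstm3 share 62.3%, 72.6% and 28.8% of their 50-base stretches with other genes, and reads without a unique place, 7.95% to 21.4% of each IP and 19.1% to 51.4% of each input library, are listed apart from genes; Gstp3 shares 0% and Txnrd2 2.37%. Gstt4, Gpx5 and Mgst2 had up to 0.781, 0.999 and 2.14 scaled CPM in their highest library.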

How the data were processed

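Each library was deposited as a table of CPM per gene, which the authors computed over all listed entries, including 5 that name no gene (35.2% to 56.6% of reads per IP library, 32.9% to 72.3% per input library). The fractions differed in these entries. Reads outside annotated features made up 20.2% to 47.7% (median 30.5%) in IP and 11.1% to 20.4% (median 12.2%) in input. Reads without a unique place had medians of 11.8% in IP and 21.7% in input. TopHat and GRCm38 are named in the submitters' processing notes, and a directional kit in the labels' protocols; no source used here gives the counting tool or its strand setting. Every deposited CPM value was a whole multiple of 1 read (100% within 0.01 read), so whole reads were recovered.

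Reads were divided by gene reads times the TMM factor (edgeR 4.0.16), giving scaled CPM. The test covered the 18737 genes that reached a deposited CPM of 1 in 2 or more libraries, using limma 3.58.1 (trended prior, R 4.3.3) on log2(scaled CPM + 1), which understates changes of low genes, with a mean for each of the 10 groups. Positions and exon lengths are from GENCODE M21 (GRCm38). The alternatives of the closing section include a pseudocount of 0.25, no filter, quantile normalization and DESeq2 1.42.0. The model was tested on simulated data. Replicates are biological per the design text.

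Members and lists were chosen with earlier results of these data known. Genes given with values were the 8 members with the largest called difference each way for IP against input and the 5 largest each way for age (where the higher side reached a mean of 5 scaled CPM), members called in the change of enrichment, the highest per kb of each family, Gpx1, Sod1, Sod2, Cat, Gpx4, Gsr, Gclc, Nqo1 and Hmox1 for their textbook roles, and up to 4 genes of each other list with the smallest adjusted p. Nfe2l2, Keap1, Slc7a11, Mafg, Mt1, Mt2, Txnip, Nox4 and further members were added after their values were seen.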

Additional observations from a re-analysis of the deposited data

Results flagged for a closer look

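Of 24 groups of member values examined in 4 to 10 libraries, 2 held a library far from the others, and chance flags about 1 group in 20. Cat in P14 IP library 2 stood at 18.4 scaled CPM, below the other 3 young IP libraries at 38.9 to 42.9. Gpx7 in the second 6-week IP library stood at 9.84 scaled CPM, above the other 6 adult IP libraries at 0 to 3.13.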

How the results depend on the processing

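The next counts cover only the members picked for values by the rule above, without those added later and without the change of enrichment. Among them, no called member changed direction under the alternatives run. Of those not called, Gsr did so in 2 (-0.03 in each) and Hmox1 in 1 (0.02). Of 878 values of these members under alternatives 849 stayed on their side of the threshold and 29 lost their call. Outside this tally, the IP against input call of Gstt2 was lost in 17 of 30 alternatives. The change of enrichment of Gpx2, not called in the main fit, was called in 5 of 30. The number of members called in IP against input was 37 and ranged from 27 (CPM as deposited, 1 higher and 26 lower) to 39. With age in IP, 3 members were called, but 1 with CPM as deposited, 1 when only the IP libraries were fitted and 5 with DESeq2, and 1 to 8 when single libraries were left out. With age in input, 5 were called, 4 to 7 under the alternatives and 4 to 6 with single libraries left out. For the change of enrichment the count was 0, with 1 by edgeR, 1 by DESeq2 and 0 to 2 with single libraries left out. The members with all IP libraries below input at all ages numbered 18, and 18 to 21 with single libraries left out, 24 without the 3 libraries that stood apart, 14 with CPM as deposited and P8 input library 2 left out, and 0 with CPM as deposited; these alternatives for that count were chosen after seeing the data. CPM as deposited moved the median of all genes from -0.02 to 0.13 for IP against input and from 0.02 to 0.38 for input with age. With a replicate block on IP and input libraries of the same age and number, 37, 3, 5 and 0 members were called, so no count changed. Same-numbered libraries deviated together with correlations of 0.0405 to 0.304, all positive but not all over 0.1, and the main model did not take the numbers as pairs. These correlations cannot tell whether same-numbered libraries share a sample, since with 2 libraries per group both pairs give the same value. Precision is limited by 2 or 3 libraries per group and, for Gsta1, Gsta2 and Gpx4, by shared sequence.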
